A study of Mus musculus with 6 samples.

Results

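The genes described here are 50 genes of the cell division cycle, 25 that copy DNA (*Mcm2* to *Uhrf1*) and 25 that carry out mitosis (*Ccna2* to *Kif23*), out of 19938 genes measured. They were taken from a fixed list of names, each through the probe set that names it alone, and where several probe sets named a gene the brightest one on average was taken. All 50 were found. The RNA came from the epithelium of the esophagus of mice 3 months old, with markers of muscle and fibroblasts also present, and was read on microarrays. The 3 mutants carried ED-L2-Cre and loxP sites on both copies of *Klf4*, which encodes a transcription factor of differentiating epithelium, and the 3 controls were sex-matched littermates with both copies floxed and no Cre. ED-L2 is a viral promoter active in squamous epithelium, so recombination depends on how many cells it reaches. In each genotype replicate 1 was male and replicates 2 and 3 were female, all on a mixed background, and 1 array was 1 animal.

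The squamous epithelium of the esophagus renews itself from dividing cells in its basal layer, which stop dividing as they move up and differentiate. During S phase a ring of MCM proteins unwinds the DNA, and polymerases held by the PCNA clamp copy it. Most of the genes for this machinery are switched on by E2F transcription factors as cells enter S phase. Later in the cycle another set is switched on, largely through a promoter element called CHR, and its products condense the chromosomes, build the spindle and divide the cell. In an array of bulk tissue, fewer cells in a given phase and less RNA per cell cannot be told apart.

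Values are log2 signals as deposited, so a difference of 1 is a doubling, and signals are compared only within a gene. The probe set for *Klf4* read 10.28, 10.50 and 10.28 on the arrays labelled mutant and 9.75, 10.15 and 10.06 on those labelled control. Every array labelled mutant read above every control, and the difference did not pass (difference 0.37 ± 0.13, SE; limma adjusted p = 0.314). Whether its probes lie in the deleted part of the gene is not given in the sources used here, so every direction below rests on the labels. The sexes matched the labels: *Xist* read 3.76 and 3.49 on the male arrays labelled mutant and control, and 8.77 to 9.24 on the 4 female arrays. *Eif2s3y*, a Y-linked gene, read 7.37 and 7.06 on those male arrays and 2.51 to 2.75 on the female ones. Keratins of squamous epithelium were bright on all 6 arrays, with *Krt5* at 12.2 to 12.6 and *Krt13* at 13.7 to 13.9. Over all genes, 207 of 19938 passed an adjusted p of 0.05 in limma, or 1.04%, of which 73 were higher on the arrays labelled mutant (0.366%) and 134 lower (0.672%). Genotypes did not overlap in 18.1% of all genes.

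None of the 50 genes passed the test between the genotypes, beside 1.04% of all genes. At an unadjusted p under 0.05 there was 1 member, *Rrm2*, beside 12.4% of all genes. Differences, mutant minus control, lay between -0.25 (*Cenpf*) and 0.47 (*Rrm2*). They were above 0 for 19 of the 25 replication genes and 19 of the 25 mitosis genes, beside 55.5% of all genes, with medians of 0.16 and 0.13 where the median of all genes was 0.022. The design left room for changes of moderate size, since in the unpaired fit the 95% interval of a member's difference reached 0.58 to either side at the median. For all 50 genes the difference between the genotypes was smaller than the larger of the 2 ranges within a genotype, as for 89.8% of all genes, and for 43 of them (65.7% of all genes) it was smaller than both.

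**Figure D1:**
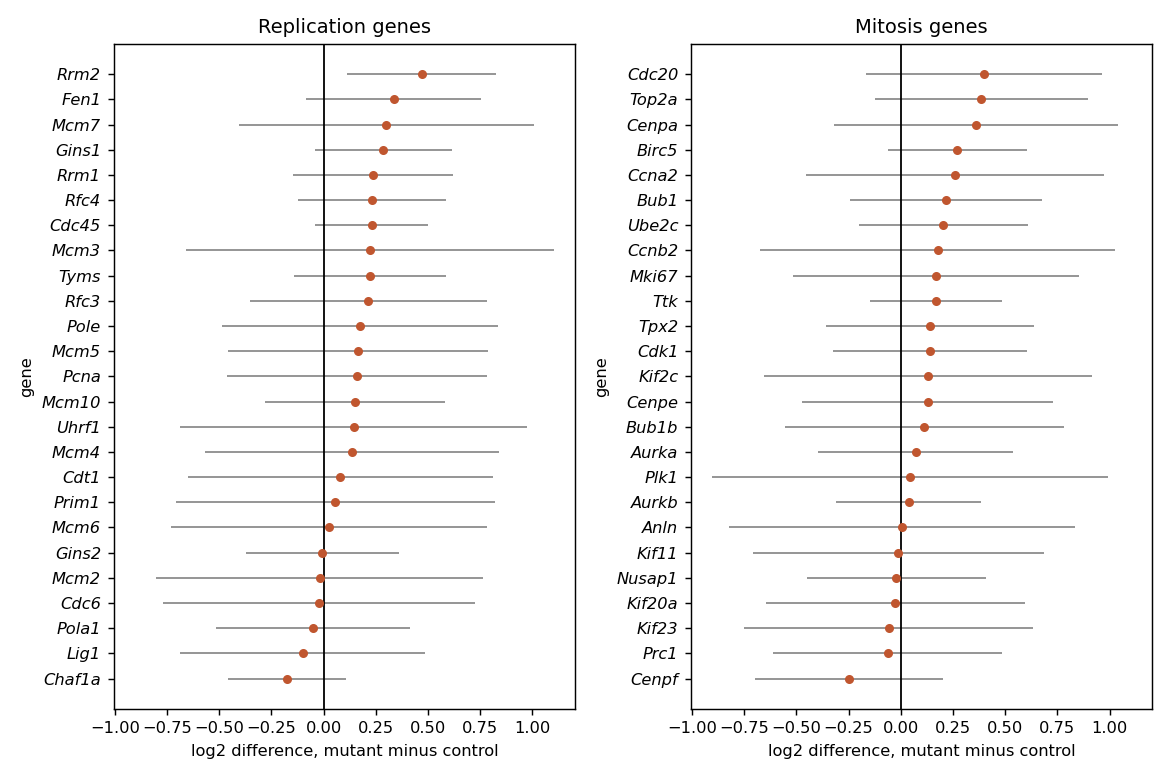
Mutant minus control difference of each replication gene and each mitosis gene, on the log2 scale (points), with the 95% interval from limma (lines). Most points lie right of 0, but the interval of every gene except *Rrm2* crosses 0, and none passed after adjustment.

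A score for each of the 2 gene sets was taken on each array as the mean, over its genes, of the log2 value minus that gene's mean over the 6 arrays. The replication score was 0.092, -0.29 and 0.41 on mutants 1, 2 and 3, and 0.19, -0.43 and 0.032 on controls 1, 2 and 3. In both genotypes array 2 was the lowest, and the genotypes overlapped. The mitosis score was -0.042, 0.34 and -0.12 on mutants 1, 2 and 3, and -0.23, 0.44 and -0.40 on controls 1, 2 and 3. Here array 2 was the highest in both genotypes, and the genotypes again overlapped. The arrays with the lowest replication scores were thus the arrays with the highest mitosis scores. The same score over all genes stayed between -0.0068 and 0.013.

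**Figure D2:**
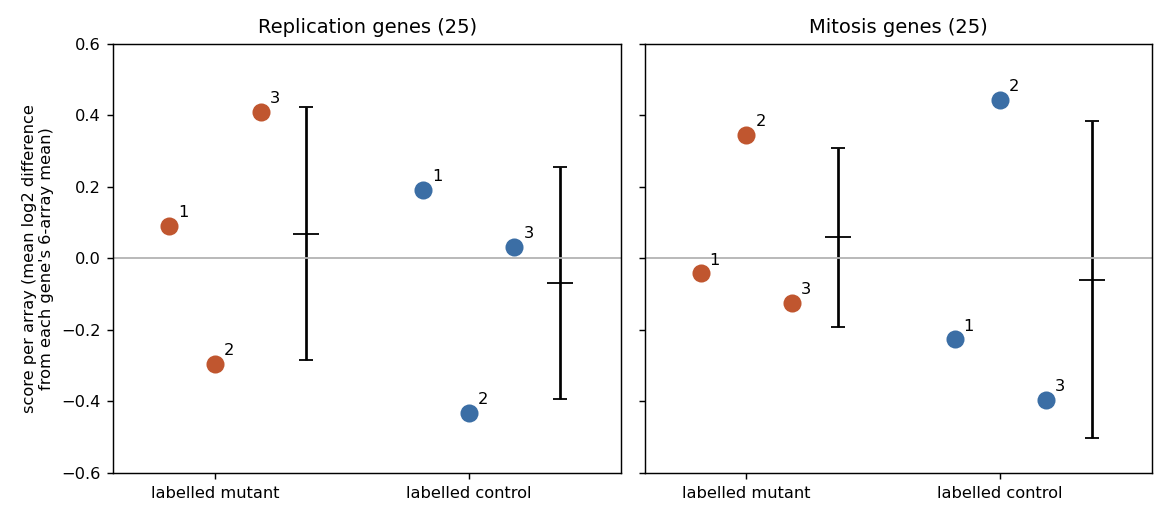
Replication score and mitosis score of each array (points, numbered by replicate), in log2 units relative to the mean of the 6 arrays, with the mean and SD of each genotype beside them (black). Both arrays numbered 2 are lowest for replication, at -0.29 and -0.43, and highest for mitosis, at 0.34 and 0.44.

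Between the genotypes the replication score averaged 0.069 ± 0.35 on the arrays labelled mutant and -0.069 ± 0.32 on those labelled control (SD, n = 3 each), a difference of 0.14. The mitosis score averaged 0.060 ± 0.25 and -0.060 ± 0.44 on mutant and control arrays, a difference of 0.12. Both differences were smaller than the SD within either genotype. Their sign changed when some single arrays were left out: the replication difference was -0.032 without mutant 3 and -0.043 without control 2, and 0.32 without mutant 2. The mitosis difference was -0.023 without mutant 2 and -0.049 without control 3, and 0.37 without control 2. Leaving out a single array also unbalances the replicate numbers, and the arrays numbered 2 moved together in both scores. Between same-numbered arrays 1, 2 and 3, mutant minus control, the replication score differed by -0.10, 0.14 and 0.38. For the mitosis score these differences were 0.18, -0.099 and 0.27. Taking the replication score minus the mitosis score on each array gave 0.13, -0.64 and 0.53 on mutants 1, 2 and 3, and 0.42, -0.88 and 0.43 on controls 1, 2 and 3. That contrast differed by 0.019 between the genotypes, while it spanned more than 1 log2 unit within each. Without both arrays numbered 2, a setting added after seeing the data, the genotype differences were 0.14 for replication and 0.23 for mitosis.

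Gene by gene the 2 sets were opposed in the same way. Of the 25 replication genes, 21 were at the lowest of their genotype on both mutant 2 and control 2, beside 10.6% of all genes. The exceptions were *Gins1*, *Rrm1*, *Tyms* and *Chaf1a*. Of the 25 mitosis genes, 23 were at the highest of their genotype on both of these arrays, beside 8.86% of all genes, and *Aurka* and *Aurkb* were the exceptions. No replication gene was highest on both and no mitosis gene lowest on both. These counts describe a pattern that was noticed in the same values and carry no test. The median SD within a genotype, moderated by limma, was 0.31 for replication genes and 0.30 for mitosis genes, against 0.15 for all genes and 0.16 for genes above the 40th percentile of signal.

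**Figure D3:**
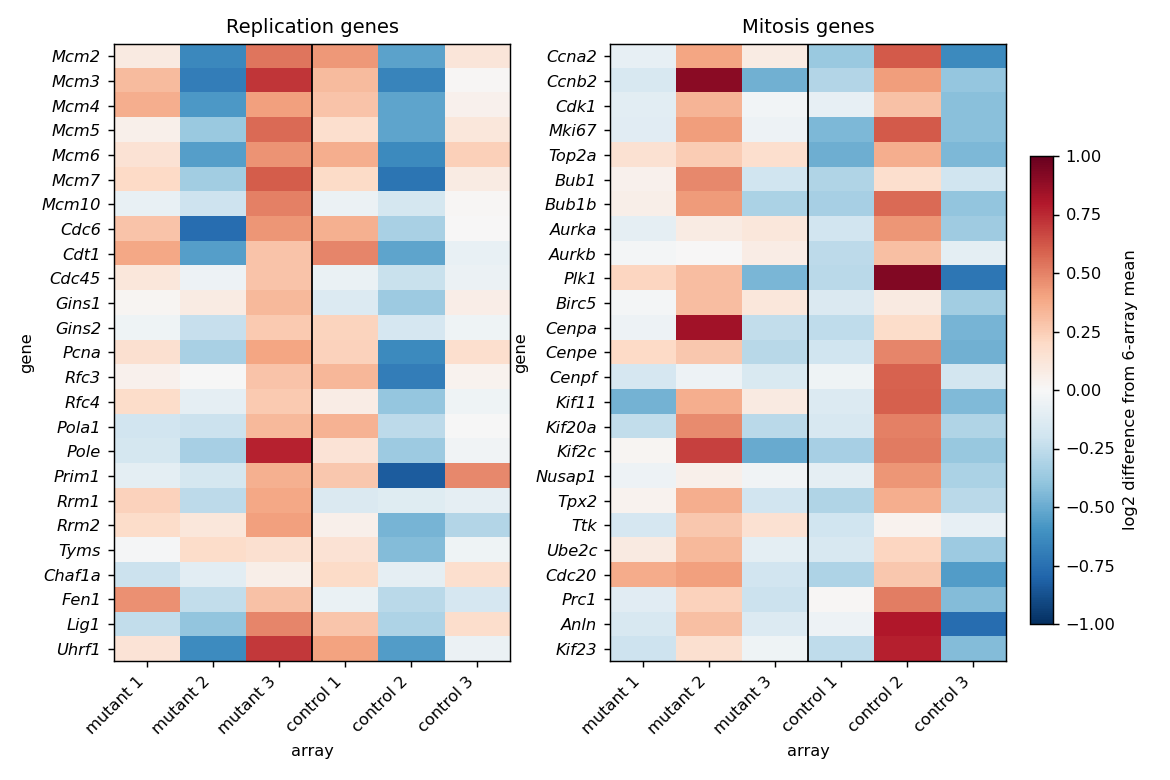
Log2 value of each member on each array, relative to the gene's mean over the 6 arrays, with mutant arrays left of the black line and control arrays right of it. Columns mutant 2 and control 2 are blue for most replication genes and red for most mitosis genes.

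Among the genes that license origins and unwind DNA, all 7 minichromosome maintenance genes listed were lowest on array 2 in both genotypes. *Mcm2*, a subunit of the helicase ring, read 7.50, 6.77 and 7.95 on mutants 1, 2 and 3 and 7.85, 6.88 and 7.54 on controls 1, 2 and 3. Array 2 was clearly below the other animals of its genotype, while the genotype means differed by -0.020 ± 0.34 (SE; adjusted p = 0.989). *Mcm7*, the ring subunit with the largest difference of the 12 genes of this group, read 7.38, 6.84 and 7.79 on mutant arrays and 7.38, 6.46 and 7.27 on control arrays. It too was lowest on both arrays numbered 2, and its difference of 0.30 ± 0.30 did not pass (adjusted p = 0.768). *Gins1*, part of the complex that joins the MCM ring to form the working helicase, had the smallest p of the group. It read 4.50, 4.56 and 4.81 on mutant arrays and 4.35, 4.12 and 4.55 on control arrays, a difference of 0.28 ± 0.14 (adjusted p = 0.481). Mutant 2 was not the lowest mutant for this gene, and mutant 1 lay below control 3. *Cdc45*, the third part of the working helicase, did not overlap between the genotypes, with mutants at 5.46 to 5.79 and controls at 5.28 to 5.45. The margin was thin, with mutant 2 at 5.463 and control 3 at 5.455. Over the 12 genes, which also hold the loading factors *Cdc6* and *Cdt1*, 9 differences were above 0 and the median was 0.14.

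The next group holds the sliding clamp *Pcna*, its loaders *Rfc3* and *Rfc4*, the polymerase and primase genes *Pola1*, *Pole* and *Prim1*, and *Fen1* and *Lig1*, which trim and join the fragments of the lagging strand. *Pcna* read 9.01, 8.52 and 9.24 on mutant arrays and 9.07, 8.21 and 9.01 on control arrays. A second probe set of *Pcna* read close to the first on each array and gave a difference of 0.17 where the first gave 0.16 ± 0.27. *Fen1* read 6.09, 5.38 and 5.92 on mutant arrays and 5.56, 5.36 and 5.46 on control arrays. Mutants 1 and 3 stood above every control and mutant 2 did not, and the difference was 0.33 ± 0.18 (adjusted p = 0.526). *Prim1* spanned the widest range among the controls of this group, 5.81 on control 2 against 6.91 and 7.12 on the other two. The 8 differences lay between -0.10 (*Lig1*) and 0.33.

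Genes that supply nucleotides were the only role group of replication in which every member was higher in the mean on the arrays labelled mutant. *Rrm2*, the regulated subunit of ribonucleotide reductase, read 6.79, 6.71 and 7.01 on mutant arrays and 6.65, 6.14 and 6.31 on control arrays. All mutants lay above all controls, though mutant 2 was only slightly above control 1. The difference was 0.47 ± 0.15, with a 95% interval of 0.11 to 0.83, and did not pass after adjustment over all genes (adjusted p = 0.252). It lay between 0.36 and 0.61 when single arrays were left out. *Rrm1*, the other subunit, and *Tyms*, which makes thymidylate, differed by 0.24 ± 0.16 and 0.22 ± 0.16. Together with *Cdc45*, *Rrm2* was 1 of 2 members whose genotypes did not overlap, both higher on the arrays labelled mutant, beside 10.1% of all genes. No member lay wholly lower, beside 8.0% of all genes.

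Of the 2 genes that rebuild chromatin on new DNA, *Chaf1a*, a histone chaperone subunit, had a difference below 0. It read 6.63, 6.74 and 6.90 on mutant arrays and 7.03, 6.75 and 7.01 on control arrays, a difference of -0.18 ± 0.12 (adjusted p = 0.646). *Uhrf1*, which passes on DNA methylation, followed the MCM genes, with 6.99, 6.23 and 7.57 on mutant arrays and 7.26, 6.30 and 6.80 on control arrays. It dipped on both arrays numbered 2 and differed by 0.14 ± 0.36 between the genotypes.

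Among the mitosis genes, the cyclins, their kinase and the markers of dividing cells came to a median difference of 0.18, with all 5 above 0. *Ccna2*, a cyclin of S phase and early mitosis, read 6.31, 6.78 and 6.47 on mutant arrays and 6.02, 7.0 and 5.75 on control arrays. *Cdk1*, the kinase that starts mitosis, read 5.95, 6.40 and 6.03 on mutant arrays and 5.98, 6.36 and 5.64 on control arrays. Both genes peaked on array 2 in either genotype, and their differences were 0.26 ± 0.31 and 0.14 ± 0.20. *Mki67*, which encodes the proliferation marker Ki-67, read 6.16, 6.69 and 6.22 on mutant arrays and 5.83, 6.89 and 5.85 on control arrays. The highest and the lowest reading of this marker both came from controls, and the genotypes differed by 0.17 ± 0.29 (adjusted p = 0.882).

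*Top2a*, the topoisomerase that untangles sister chromatids, was nearly level over the mutants, at 6.97, 7.08 and 6.99. On controls it read 6.33, 7.18 and 6.37, so control 2 was the highest array of all and the other controls were the lowest. The difference was 0.38 ± 0.22 (adjusted p = 0.557), and without control 2 it was 0.66 (adjusted p = 0.0587), the smallest adjusted p of any member under the alternatives tried. A second probe set of *Top2a* read between 2.04 and 2.38 on all arrays, near the bottom of the scale.

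*Ccnb2*, a mitotic cyclin, spanned the widest range of the mitosis genes within the mutants, 5.86, 6.92 and 5.54 on mutants 1, 2 and 3, against 5.72, 6.44 and 5.63 on controls 1, 2 and 3. Its 2 highest readings were again those of the arrays numbered 2.

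All 7 checkpoint and mitotic kinase genes had differences above 0, none larger than 0.27. This group holds *Bub1*, *Bub1b* and *Ttk* of the spindle checkpoint, the Aurora kinases *Aurka* and *Aurkb*, *Birc5* (survivin, a partner of Aurora B) and the polo-like kinase *Plk1*. *Birc5* read 4.82, 5.15 and 4.95 on mutant arrays and 4.69, 4.93 and 4.49 on control arrays. Mutant 1 lay below control 2, and the difference was 0.27 ± 0.14 (adjusted p = 0.514). *Plk1* was the most variable gene of the group, with a range of 0.76 within mutants and 1.65 within controls, and a difference of 0.043 ± 0.41.

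Of the 3 centromere genes, *Cenpa*, the histone variant that marks centromeres, read 6.30, 7.19 and 6.10 on mutant arrays and 6.09, 6.53 and 5.88 on control arrays. Mutant 2 alone stood well above the rest, and the difference was 0.36 ± 0.29 (adjusted p = 0.706). *Cenpf*, a kinetochore protein, had the lowest difference of the 50 genes. It read 4.60, 4.72 and 4.62 on mutant arrays and 4.73, 5.36 and 4.59 on control arrays. The difference of -0.25 ± 0.19 (adjusted p = 0.692) came from control 2, and was -0.014 without that array.

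Spindle genes had differences close to 0 on both sides, 2 above and 4 below, between -0.058 (*Kif23*) and 0.14 (*Tpx2*). *Tpx2*, which activates Aurora A on the spindle, read 6.06, 6.39 and 5.84 on mutant arrays and 5.73, 6.39 and 5.76 on control arrays, a difference of 0.14 ± 0.21 (adjusted p = 0.859). The motors *Kif11*, *Kif20a*, *Kif23* and *Kif2c* and the spindle protein gene *Nusap1* also peaked on both arrays numbered 2. *Cdc20*, which activates the ubiquitin ligase of anaphase, read 6.88, 6.92 and 6.32 on mutant arrays and 6.20, 6.78 and 5.96 on control arrays. Mutant 3 lay below control 2, and the difference of 0.40 ± 0.24, the largest of the mitosis genes, did not pass (adjusted p = 0.593). It was between 0.22 and 0.63 when single arrays were left out. *Ube2c*, a conjugating enzyme of the same ligase, differed by 0.20 ± 0.17. The cytokinesis genes *Prc1* and *Anln*, for a midzone bundler and an anchor of the contractile ring, differed by -0.063 ± 0.24 and 0.0041 ± 0.36. *Prc1* read 5.57, 5.92 and 5.47 on mutant arrays and 5.70, 6.20 and 5.25 on control arrays, again highest on array 2 in both genotypes.

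The promoters of the 2 sets were searched for the elements by which S phase and mitosis genes are known to be switched on. Both sets were listed by known role, though with earlier results of these data known, and the motif search itself used no array values. The window ran from 250 bases before to 50 after each RefSeq start on GRCm38.p6, and both strands were read. Motifs were E2F (TTCCCGC or TTCGCGC or TTGCCGC or TTGGCGC), CHR (TTTGAA) and the CCAAT box (CCAAT). E2F motifs on opposite strands can overlap each other or a CCAAT box. The table held a promoter for 21 of the 25 replication genes and 21 of the 25 mitosis genes, and a gene counted if any of its listed starts matched. *Mcm4*, *Gins1*, *Gins2*, *Pole*, *Ccna2*, *Aurkb*, *Kif20a* and *Tpx2* were not matched. The 5 promoters below were chosen after these searches, for showing each arrangement clearly, and run from 220 bases before the start to 30 after it on the gene's strand, with matches in capitals.

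*Mcm5* (chr8:75109289-75109538, plus strand): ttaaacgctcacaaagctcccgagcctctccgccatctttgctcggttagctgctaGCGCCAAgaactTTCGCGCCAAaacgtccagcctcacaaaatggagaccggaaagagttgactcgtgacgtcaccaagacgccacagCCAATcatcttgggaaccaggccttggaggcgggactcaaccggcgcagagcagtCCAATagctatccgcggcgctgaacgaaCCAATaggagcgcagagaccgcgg
*Mcm6* (chr1:128359676-128359925, minus strand): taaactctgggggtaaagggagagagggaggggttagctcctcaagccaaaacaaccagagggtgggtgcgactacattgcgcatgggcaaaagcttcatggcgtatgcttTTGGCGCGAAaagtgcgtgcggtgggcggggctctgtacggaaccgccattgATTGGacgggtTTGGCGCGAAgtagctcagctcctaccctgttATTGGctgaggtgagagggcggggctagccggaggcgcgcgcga
*Ccnb2* (chr9:70421525-70421774, minus strand): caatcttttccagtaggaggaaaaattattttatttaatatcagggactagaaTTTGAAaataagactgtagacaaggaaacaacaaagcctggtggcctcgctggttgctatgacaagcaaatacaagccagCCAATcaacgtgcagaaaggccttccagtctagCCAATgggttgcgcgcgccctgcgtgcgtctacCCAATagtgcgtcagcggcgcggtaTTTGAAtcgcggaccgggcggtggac
*Cdc20* (chr4:118437314-118437563, minus strand): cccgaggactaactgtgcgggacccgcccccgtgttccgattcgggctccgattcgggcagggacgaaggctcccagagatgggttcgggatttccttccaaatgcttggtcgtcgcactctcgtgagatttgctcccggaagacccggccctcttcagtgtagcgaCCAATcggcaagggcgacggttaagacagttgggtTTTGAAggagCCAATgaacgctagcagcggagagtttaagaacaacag
*Cdk1* (chr10:69352883-69353132, minus strand): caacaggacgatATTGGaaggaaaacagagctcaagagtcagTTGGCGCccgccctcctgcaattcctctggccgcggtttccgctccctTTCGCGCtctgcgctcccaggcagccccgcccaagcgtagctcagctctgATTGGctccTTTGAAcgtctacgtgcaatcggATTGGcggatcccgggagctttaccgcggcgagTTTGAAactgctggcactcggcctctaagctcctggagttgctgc

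In *Mcm5* the E2F matches began 164, 152 and 149 bases before the start, the last pair overlapping on opposite strands, and 3 CCAAT boxes lay downstream of them. *Mcm6* held overlapping E2F matches 109 and 106 bases before the start and again 46 and 43 bases before it. A further E2F match in *Mcm6* began 24 bases after the start and ran beyond the printed stretch. Its CCAAT boxes lay 57 and 14 bases before the start. *Mcm5* read 7.13, 6.71 and 7.64 on mutant arrays and 7.25, 6.55 and 7.19 on control arrays, and *Mcm6* read 7.37, 6.67 and 7.67 on mutant arrays and 7.59, 6.59 and 7.46 on control arrays. Both genes were lowest on both arrays numbered 2. In *Cdc20* a CHR match 18 bases before the start lay between CCAAT boxes 53 and 8 bases before it. *Ccnb2* had CHR matches 167 bases before the start and just after it, with 3 CCAAT boxes in between. *Cdk1* held all 3 kinds, with E2F matches 178 and 130 bases and CHR matches 71 and 15 bases before the start, and its expression peaked on array 2 with the mitosis genes.

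Over the members, 16 of 21 replication promoters held an E2F motif (76.2%), against 10.9% of the 27025 genes in the table, and 3 of 21 a CHR motif (14.3%, against 20.2%). Those without an E2F match were *Mcm2*, *Mcm10*, *Cdc45*, *Pcna* and *Tyms*. Mitosis promoters were the reverse, with a CHR motif in 17 of 21 (81.0%) and an E2F motif in 2 of 21 (9.52%), *Cdk1* and *Mki67*. *Bub1*, *Birc5*, *Cenpe* and *Nusap1* had no CHR match. The CCAAT box was common in both sets, in 15 of 21 replication and 17 of 21 mitosis promoters, against 41.1% of all genes. On the wider lists an E2F motif was found in 58% of replication and 32.4% of mitosis promoters, both above the 10.9% of all genes. The low E2F share of the mitosis members thus did not extend to the wider mitosis list. A CHR motif was found in 20% of wider replication and 59.2% of wider mitosis promoters, against 20.2% of all genes. Motif and array 2 pattern did not always go together. *Mcm2*, *Mcm10*, *Cdc45* and *Pcna*, without an E2F match, were lowest on both arrays numbered 2, while *Rrm1* and *Chaf1a*, with one, were not. *Bub1*, *Birc5*, *Cenpe* and *Nusap1*, without a CHR match, were highest on both, while *Aurka*, with one, was not. The part of the motifs in the array 2 pattern was not tested. A match describes letters in this window and is not a measured binding site.

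**Figure D4:**
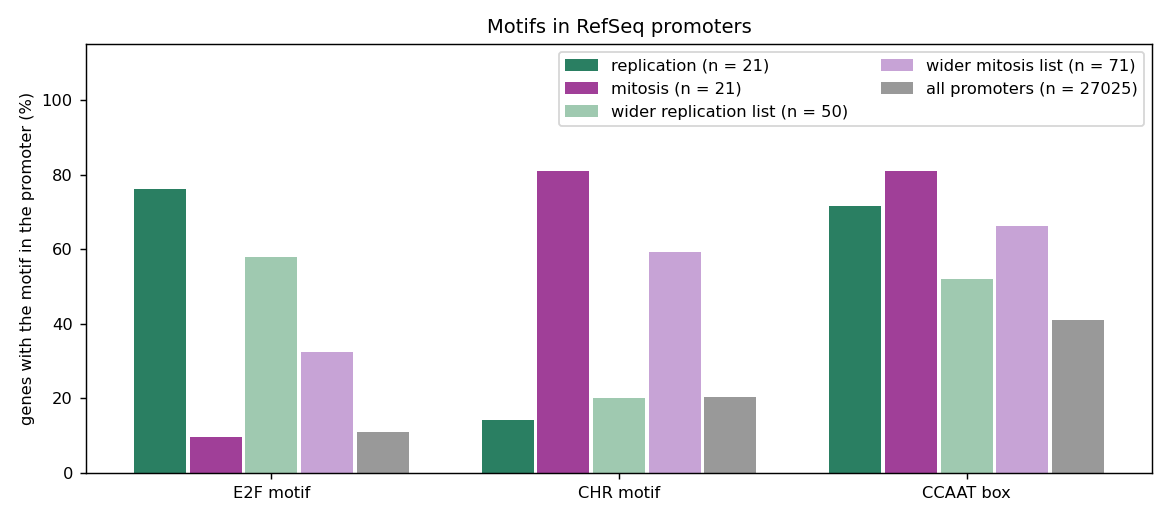
Share of genes with an E2F motif, a CHR motif or a CCAAT box in the promoter window, in percent, for the replication and mitosis members, for the wider lists of other replication and mitosis genes, and for all genes of the promoter table. E2F is found in 76.2% of replication members and CHR in 81.0% of mitosis members.

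Other genes of the 2 processes, not on the member list, were read in the same fit. None of 62 further replication genes passed. Differences were above 0 for 50 of them, beside 55.5% of all genes. The median of the list was 0.14, where the median of all genes was 0.022. Leaving out control 2 gave a median of 0.042 and leaving out mutant 3 gave 0.067, while it was 0.22 without mutant 2 and 0.26 without control 1. At an unadjusted p under 0.05 there were 6, all higher on the arrays labelled mutant, which is 9.68% of the list beside 12.4% of all genes. *Ccne1*, the cyclin that drives cells into S phase, had the smallest p. It read 7.75, 7.07 and 7.61 on mutant arrays and 6.47, 6.03 and 6.60 on control arrays, so the genotypes did not overlap, and it differed by 1.11 ± 0.21 (adjusted p = 0.0701). *E2f3*, an activating E2F factor, read 6.19, 6.15 and 6.07 on mutant arrays and 5.76, 5.44 and 5.54 on control arrays, again without overlap. Its difference was 0.55 ± 0.11 (adjusted p = 0.0811). *Gins4*, a partner of *Gins1* in the helicase, read 6.83, 6.71 and 6.67 on mutant arrays and 6.39, 6.05 and 6.34 on control arrays, and differed by 0.47 ± 0.12 (adjusted p = 0.141). These genes were picked for the smallest p. Over the list, 9 of 62 genes did not overlap between the genotypes, all higher on the arrays labelled mutant, beside 10.1% of all genes. On this list 30 of 62 genes were lowest of their genotype on both arrays numbered 2, beside 10.6% of all genes.

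None of 79 further mitosis genes passed. Differences were above 0 for 59 of them, beside 55.5% of all genes. The median of the list was 0.095. That median was 0.0011 without control 3, 0.059 without mutant 2 and 0.18 without control 2. An unadjusted p under 0.05 was found for 8 higher and 2 lower, 12.7% of the list beside 12.4% of all genes. *Kpna2*, an importin, read 9.09, 8.89 and 8.76 on mutant arrays and 8.49, 8.45 and 8.32 on control arrays, a difference of 0.50 ± 0.12 (adjusted p = 0.116). *Cks1b*, a small partner of cyclin-dependent kinases, read 6.92, 6.56 and 6.04 on mutant arrays and 5.92, 5.82 and 5.73 on control arrays, a difference of 0.68 ± 0.21 (adjusted p = 0.217). *Bub3*, of the spindle checkpoint, read 9.17, 9.05 and 9.07 on mutant arrays and 8.89, 8.78 and 8.58 on control arrays, a difference of 0.35 ± 0.11 (adjusted p = 0.237). These genes, picked for the smallest p, did not overlap between the genotypes. Over the list, 9 of 79 genes did not overlap and were higher on the arrays labelled mutant, beside 10.1% of all genes. Another 2 were wholly lower, beside 8.0% of all genes. On this list 31 of 79 genes were highest of their genotype on both arrays numbered 2, beside 8.86% of all genes.

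Arrays 2 and 3 were both female, and the part of sex in the array 2 pattern was not tested. The replication score differed by -0.10 between the 2 males and by 0.26 between the female means, and the mitosis score by 0.18 and 0.086. Of the 50 members, 0 passed limma's interaction of genotype and sex and 0 had an unadjusted p under 0.05, beside 0.0451% and 5.82% of all genes. The males are 1 array a genotype, so that test takes its spread from the females.

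Other measures moved along with the scores or with the genotypes. Genes of the circadian clock, a list added after the members' values were seen, also set the arrays numbered 2 apart. *Arntl*, an activator of the clock, read 5.55, 7.11 and 6.48 on mutant arrays and 5.87, 7.01 and 6.39 on control arrays. *Per1*, a repressor of the clock, read 7.79, 6.29 and 6.97 on mutant arrays and 7.82, 5.90 and 6.81 on control arrays. *Arntl* was highest and *Per1* lowest on array 2 in both genotypes. *Clock*, the partner of *Arntl*, was also highest there, and of the 12 repressors and output genes measured all but *Cry1* and *Nr1d1* were lowest there. The clock-driven gene *Wee1*, whose product holds back *Cdk1*, followed *Per1*, with 8.49, 7.60 and 8.34 on mutant arrays and 8.70, 7.22 and 7.82 on control arrays. Over the 12 repressors and output genes the score was 0.20, -0.61 and 0.0027 on mutant arrays and 0.69, -0.55 and 0.27 on control arrays. The part of the clock genes in the replication and mitosis scores was not tested, and the labels used here give no hour of collection.

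Markers of other cells also varied. All 9 fibroblast markers measured had lower means in mutants, and 3 passed, with scores of -0.73 to -0.41 there and 0.14 to 0.90 on control arrays. All 8 smooth muscle markers were lower without passing, with scores of -0.77 to -0.055 on mutant arrays and 0.13 to 0.85 on control arrays. Skeletal muscle markers varied most, from -1.98 to 0.71 on mutant arrays and from -2.03 to 1.99 on control arrays. Control 2 was their highest array, while mutant 2 lay between the other mutants. Of 8 basal keratinocyte markers, 7 were lower in the mean and none passed, with scores of -0.21 to 0.078 on mutant arrays and 0.042 to 0.16 on control arrays. Of 9 leukocyte markers measured, *Cd68*, a macrophage protein, was higher (difference 1.11, adjusted p = 0.0304) and *Lyz2*, a lysozyme, lower (difference -1.57, adjusted p = 0.0463), and the others did not pass. Leukocyte scores lay between -0.15 and 0.26 on mutant arrays and between -0.21 and 0.20 on control arrays. Of 11 suprabasal keratinocyte markers, 5 were higher and 6 lower in the mean and none passed. The part of these cells in the scores of the division genes was not tested.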

How the data were processed

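The authors deposited log2 signals for 28853 probe sets on 6 arrays. The log2 scale was read from the values, with array medians of 5.01 to 5.13. Per the submitters' processing notes Partek 6.4 was used, and how signals were corrected, normalized and summarized is not given here. Names came from GEO's platform annotation, updated through Entrez identifiers. Of the probe sets 21789 named 1 gene, giving 19938 genes. Precision is limited by the number of arrays.

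The 19938 genes entered 1 fit in limma 3.58.1 (R 4.3.3), two-sided and with genotype as the only term. Residual degrees of freedom were 4, and 7.58 once variances were moderated. P-values were adjusted over all genes by Benjamini-Hochberg. Scores over members carry no test. The fit was tested on simulated data. Members, gene lists and tests were chosen with earlier results of these data known. Values on every array are given for the member with the smallest p and that with the largest difference in each role group, and for *Mcm2*, *Pcna*, *Ccna2*, *Cdk1*, *Mki67* and *Top2a*. For the wider lists, they are given for the 3 genes with the smallest p. Values of other members were shown after being seen. Promoter sequences are RefSeq's, on GRCm38.p6. Alternatives covered scaling, probe set choice, dim genes, left-out arrays, covariates and variance models. The clock list was added after values were seen. The labels do not say whether same-genotype replicates came from separate litters.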

Additional observations from a re-analysis of the deposited data

How the results depend on the processing

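No member passed under any of the 17 alternatives. The smallest adjusted p was 0.0587, for *Top2a* without control 2, and 32 of the 50 members changed sign under at least 1 alternative. Both score differences kept their sign under quantile normalization (0.18 for replication, 0.13 for mitosis), median centring, averaged probe sets, without dim genes, in females alone and as medians over members. Their sign changes without single arrays stand in the report, and the difference of the replication minus mitosis contrast lay between -0.41 and 0.34 without single arrays. The count of all genes past the threshold was 44 to 193 with single arrays left out, 83 in females alone, 370 with array weights, 7 without moderation and 29 without both arrays numbered 2. Some of these settings hold fewer arrays, and the causes of the changed counts were not tested. Members whose genotypes do not overlap numbered 3 to 15 higher with single arrays left out, beside 13.1% to 16.9% of all genes, with 15 of 50 without control 2 beside 15.4%. They numbered 0 to 1 lower, beside 10.8% to 14.6%, and 6 higher in females alone, beside 24.3%. With the replicate number as a block, 81 genes and 0 members passed. Same-numbered arrays correlated at -0.17, 0.090 and -0.10 over all genes after removing genotype means, and the labels tie no number to a litter, so the report's intervals are unpaired. Over the 50 members alone those correlations were 0.42, 0.82 and 0.73. With the block the members' median interval reached 0.36 in place of 0.58, narrower for 46 of 50, and 3 members had an unadjusted p under 0.05, beside 11.3% of all genes. With 3 arrays per genotype, a member's change smaller than the reach of its interval could not be told from 0 even before adjustment. The difference of *Rrm2* exceeded that reach and still did not pass (limma adjusted p = 0.252).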
